A study of Homo sapiens with 4 samples.

Results

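The clustered histone genes are the 71 features, of 22494 in the table of raw counts, whose symbols start with HIST1H, HIST2H, HIST3H or HIST4H. They comprised 6 genes of linker histone H1 and 17 genes of H2A, 18 of H2B, 15 of H3 and 15 of H4, the core histones. The HIST1 cluster on chromosome 6 held 55 of them, and HIST2, HIST3 and HIST4 held 12, 3 and 1. The series has 4 libraries from 2 human lines of endometrial cancer. HEC-1-A cells transfected with tRF-20-S998LO9D mimics, which imitate a fragment of a transfer RNA, were set against HEC-1-A cells given the negative control of the mimics. RL-95-2 cells with the mimics were likewise set against RL-95-2 cells with that negative control, with 1 library in each of the 4 groups. All groups were transfected, and no untransfected cells are part of the design. RNA was selected with oligo(dT) beads, fragmented, reverse transcribed from random hexamers and read as paired 150-base reads. Each group is a culture of an established line, so differences between HEC-1-A and RL-95-2 are differences between 2 single lines.

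A nucleosome wraps DNA around an octamer of H2A, H2B, H3 and H4, and H1 binds the linker DNA between nucleosomes. Most clustered histone genes are transcribed in S phase, when new chromatin needs histones. Their mRNAs have no introns and, unlike other mRNAs, usually end just after a conserved stem-loop instead of a poly(A) tail. The stem-loop binding protein SLBP recognises this element, and U7 snRNP with LSM10 and LSM11 directs the cut downstream of it. When that cut is missed, a downstream poly(A) signal can be used, and differentiated or non-dividing cells make polyadenylated forms of some of these genes. An oligo(dT) library therefore samples a minor form of this RNA: a change in total histone mRNA and a change in the share with a poly(A) tail cannot be told apart in it. In bulk libraries, likewise, fewer cells expressing a gene and less RNA per cell cannot be told apart.

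The sequence that decides between these ends is shown first. In the transcripts of GENCODE release 29 (GRCh38), the consensus of the histone stem-loop, searched on the sense strand with its variable positions left free, was found in 32 of the 71 genes. In 17 of these the stem-loop read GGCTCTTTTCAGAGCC, in 5 it read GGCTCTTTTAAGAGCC, and in another 5, all H4 genes, it read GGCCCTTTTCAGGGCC. The form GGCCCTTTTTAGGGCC occurred in 3 H4 genes, and GGCTCTTCTCAGAGCC and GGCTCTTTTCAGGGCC in 1 gene each. The following genes cover all 6 forms and include HIST3H2A, HIST1H2AC and HIST2H2BE, which had the most counts of the genes with the motif. Each line gives the gene strand from 5′ to 3′ with GRCh38 coordinates, the stem-loop in capitals and 5 flanking bases on each side in lower case.
HIST1H2AC (chr6:26124664-26124689, + strand): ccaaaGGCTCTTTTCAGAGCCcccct
HIST2H2BE (chr1:149886183-149886208, - strand): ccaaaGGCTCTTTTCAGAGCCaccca
HIST3H2A (chr1:228457364-228457389, - strand): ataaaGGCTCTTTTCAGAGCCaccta
HIST1H2BD (chr6:26158582-26158607, + strand): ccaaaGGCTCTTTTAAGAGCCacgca
HIST1H3E (chr6:26225591-26225616, + strand): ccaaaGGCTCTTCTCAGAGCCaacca
HIST1H2AG (chr6:27133510-27133535, + strand): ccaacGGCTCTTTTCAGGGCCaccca
HIST1H4H (chr6:26285126-26285151, - strand): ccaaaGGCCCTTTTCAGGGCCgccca
HIST1H4I (chr6:27139649-27139674, + strand): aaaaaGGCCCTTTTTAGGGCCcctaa
HIST2H4A (chr1:149833027-149833052, + strand): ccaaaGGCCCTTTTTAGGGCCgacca

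The model of a gene decides whether reads beyond the stem-loop can be counted. In 23 genes an annotated transcript that holds the stem-loop ran at least 100 bases past it, in 9 no such transcript ran that far, and in 39 the model held no stem-loop, mostly because it covers the coding sequence alone. HIST1H2AC (chr6:26124145-26139116, + strand) has 2 exons and runs 1128 bases past its stem-loop, and HIST2H2BE (chr1:149884459-149886652, - strand) runs 1729 bases past. HIST1H2BK (chr6:27146418-27146798, - strand) and HIST1H1C (chr6:26055787-26056428, - strand) are annotated as 381 and 642 bases with no stem-loop in the model. The poly(A) signal AATAAA lay in the last 50 bases of a transcript for 21 genes, and 13 genes have a spliced transcript. HIST1H2BD counts among the 9, since its transcript with the stem-loop ends 39 bases after it, but the gene also has a spliced transcript of 789 bases and extends to position 26171349. These models describe that annotation, and the annotation behind the deposited counts is not given.

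The promoters carry elements that differ by histone type. RefSeq promoters (GRCh38.p14, 250 bases before to 50 after each start) were matched for 61 of the 71 genes and searched on both strands beside all 27305 promoters of that length. The TATA box TATAAA was in 40 of the 61 (65.6%, against 12% of all promoters), and CCAAT in 51 (83.6%, against 35.7%). The octamer ATTTGCAT, the site read by the POU factor OCT1 (POU2F1), was in 26 (42.6%, against 1.8%). It was found in 11 of 14 H2A and 14 of 18 H2B promoters, in 1 of 10 H3 promoters and in no H1 or H4 promoter (0 of 6 and 0 of 13). The H1 box AAACACA was in 9 promoters (14.8%, against 5.76%), among them all 6 of the H1 genes. A match is a run of letters and does not show that a factor binds there. The promoters below are those of the gene with the highest H2B level, of the H2A gene with the largest ratios in both lines, of an H2B gene with high counts and small ratios, and of the leading H1 gene. Capitals mark every match to these 4 motifs on either strand, reverse complements included, and overlapping matches run together.
HIST1H2BK (chr6:27146809-27147108, - strand): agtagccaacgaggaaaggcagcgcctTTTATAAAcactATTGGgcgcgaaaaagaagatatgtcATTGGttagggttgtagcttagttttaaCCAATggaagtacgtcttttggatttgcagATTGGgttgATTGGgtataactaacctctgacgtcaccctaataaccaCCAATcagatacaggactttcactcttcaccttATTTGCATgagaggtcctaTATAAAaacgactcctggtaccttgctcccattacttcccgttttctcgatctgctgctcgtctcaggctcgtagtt
HIST1H2AC (chr6:26123922-26124221, + strand): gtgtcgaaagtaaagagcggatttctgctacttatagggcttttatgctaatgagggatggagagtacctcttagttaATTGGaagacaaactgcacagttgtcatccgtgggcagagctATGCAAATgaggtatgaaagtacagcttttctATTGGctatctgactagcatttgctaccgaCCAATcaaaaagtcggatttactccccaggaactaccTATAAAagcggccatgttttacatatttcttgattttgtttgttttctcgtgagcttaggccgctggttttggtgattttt
HIST2H2BE (chr1:149886633-149886932, - strand): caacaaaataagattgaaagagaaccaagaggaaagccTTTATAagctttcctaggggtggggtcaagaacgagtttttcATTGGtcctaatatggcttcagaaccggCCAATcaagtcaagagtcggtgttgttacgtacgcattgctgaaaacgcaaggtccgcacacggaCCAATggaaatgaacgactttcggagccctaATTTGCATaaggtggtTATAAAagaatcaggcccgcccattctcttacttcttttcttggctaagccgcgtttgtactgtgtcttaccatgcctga
HIST1H1C (chr6:26056421-26056720, - strand): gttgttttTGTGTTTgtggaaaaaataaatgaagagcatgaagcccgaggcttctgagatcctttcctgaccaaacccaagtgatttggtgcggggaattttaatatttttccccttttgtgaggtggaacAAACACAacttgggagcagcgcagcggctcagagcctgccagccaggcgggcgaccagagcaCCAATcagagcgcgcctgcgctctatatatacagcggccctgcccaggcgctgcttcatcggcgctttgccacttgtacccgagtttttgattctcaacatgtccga

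The libraries held 33575882 to 46220053 counts, and within each line the mimic library was the deeper: 45970431 against 33575882 in HEC-1-A and 46220053 against 39999621 in RL-95-2. The part of depth in the results below was not tested; counts were scaled by library (TMM), and the median log2 ratio over all features averaging 1 or more counts per 1000000 (CPM) was 0.02 in HEC-1-A, with 0.00 for RL-95-2. All 5 epithelial markers and PAX8, a Müllerian factor, were detected in every library. SOX17, also Müllerian, and DCN of stroma were at 0 in all of them, and PTPRC of blood cells had at most 2 counts. RL-95-2 also held counts for the endothelial gene CDH5 (1207 in the mimic and 548 in the control library), which had 0 counts in HEC-1-A, and for the stromal gene COL1A1 (2788 and 3051), which had 286 and 98 in HEC-1-A.

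Clustered histone genes were a small share of these libraries. They had 7974 counts in the HEC-1-A mimic library against 4168 in its control, and 6018 counts in the RL-95-2 mimic library against 2987 in its control. Between 45 and 48 of the 71 genes had a count in any given library. Of the rest, 16 had 0 counts in all 4 libraries, where a count of 0 allows at most 3 counts, or 0.0609 to 0.0905 CPM. These 16 genes at 0 were HIST1H1B, 3 H2A, 5 H2B, 4 H3 and 3 H4 genes, and 2 of them have an annotated AATAAA. A count of 0 in poly(A) RNA does not show that a gene was not transcribed. HIST1H2AK, which is among these genes at 0, shares 100% of its 150-base stretches with the overlapping HIST1H2BN. A different 16 genes had counts, but at most 10 in every library. The 5 genes with the most counts held 59.1% to 66.9% of all counts of the group in each library.

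Per length, the levels were led by an H2B and an H1 gene. HIST1H2BK, a replication-dependent H2B gene, had 58.0 FPKM in the HEC-1-A mimic library against 40.7 FPKM in the control, and 88.9 against 31.1 FPKM in RL-95-2. HIST1H1C, which encodes the linker histone H1.2, had 49.7 against 29.4 FPKM in HEC-1-A and 28.7 against 19.7 FPKM in RL-95-2. The H2A gene HIST3H2A came next in HEC-1-A, with 15.7 against 17.9 FPKM, and had 7.50 against 5.98 FPKM in RL-95-2. These FPKM rest on gene models of very different length, and a model without the region past the stem-loop counts only part of a longer transcript.

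Summed over each histone type, counts were higher in the mimic library than in the control library for all 5 types in both lines. In HEC-1-A the group summed to 178 CPM with the mimics and 126 CPM with the control, a log2 ratio of 0.50 (95% counting interval 0.45 to 0.56, or 1.42-fold). In RL-95-2 it summed to 122 CPM and 76.5 CPM, a log2 ratio of 0.67 (0.61 to 0.74, or 1.6-fold). With 1 library per group there is no replicate check in either line: these exact intervals come from the pair of counts and cover counting error only, not the spread between cultures. Without HIST1H1C and HIST1H2BK the sums still gave 0.41 for HEC-1-A and 0.48 for RL-95-2.

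The types differed in how far apart the libraries were, and not in the same order in both lines. In HEC-1-A, H1 had 38.1 CPM with the mimics against 22.1 CPM with the control (log2 ratio 0.78, 0.66 to 0.91), and H3 had 7.77 against 4.53 CPM (0.78, 0.50 to 1.07). H2B had 60.1 against 42.7 CPM there (0.49, 0.40 to 0.59), H4 had 22.7 against 16.6 CPM (0.45, 0.30 to 0.61) and H2A had 49.4 against 39.9 CPM (0.31, 0.21 to 0.41). H1 and H3 were thus furthest apart in HEC-1-A and H2A least. In RL-95-2, H2B was furthest apart, with 53.1 against 27.5 CPM (0.95, 0.85 to 1.06), followed by H4 with 13.6 against 8.28 CPM (0.72, 0.53 to 0.92). H2A had 30.6 against 21.6 CPM (0.50, 0.38 to 0.63), H3 had 4.99 against 3.84 CPM (0.38, 0.08 to 0.68) and H1 had 19.7 against 15.3 CPM (0.36, 0.21 to 0.51). The lead of H2B in RL-95-2 rested on HIST1H2BK, since the other 17 H2B genes summed to 17.5 against 13.7 CPM (0.35, 0.19 to 0.51). The higher H3 sum in RL-95-2 rested on HIST1H3H, which alone had 2.45 against 0.974 CPM. The remaining H3 genes together had fewer CPM with the mimics than with the control there.

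**Figure D1:**
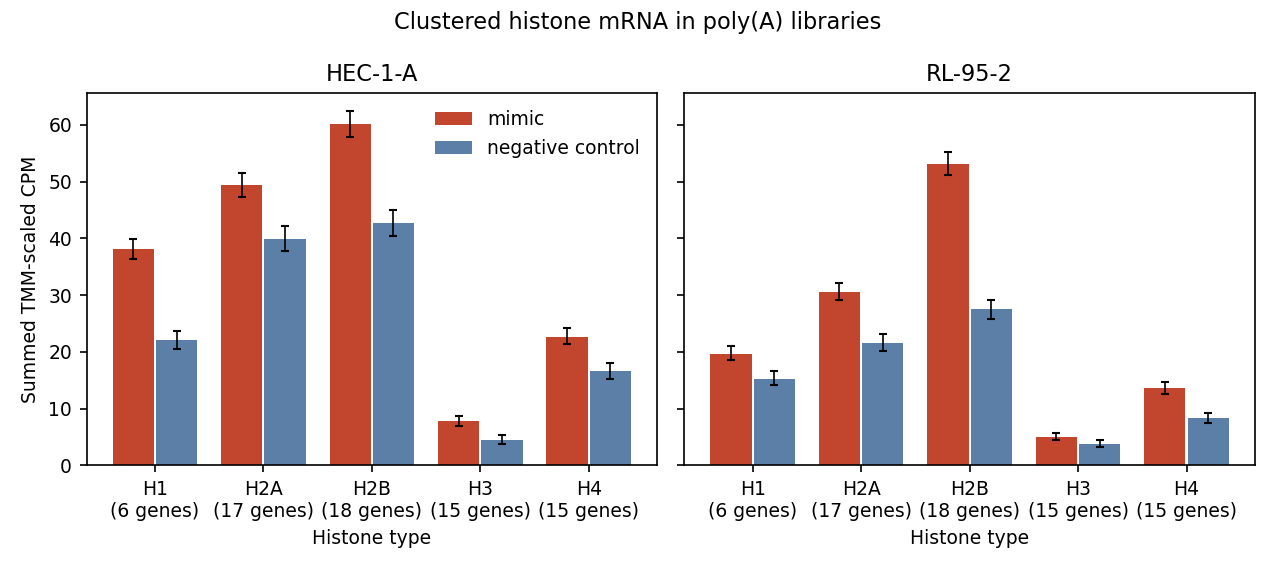
Summed TMM-scaled CPM of each histone type (x axis) in the mimic and the negative control library of HEC-1-A (left panel) and RL-95-2 (right panel). Bars are sums over all genes of the type and error bars are exact 95% Poisson intervals, which cover counting error only. The mimic bar is the taller in all 10 pairs, with H2B in RL-95-2 at 53.1 against 27.5 CPM.

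Single genes were then compared within each line where the mean of the line's libraries was at least 1 CPM. By this minimum 22 of the 71 genes could be measured in either line and 15 in both, 4 in HEC-1-A alone and 3 in RL-95-2 alone. Ratios are log2 ratios of TMM-scaled CPM with a prior count of 2, mimic over control.

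H1 was nearly a single gene. HIST1H1C had 36.9 CPM in the HEC-1-A mimic library against 21.4 CPM in its control, and 19.4 against 14.6 CPM in RL-95-2. The log2 ratios were 0.79 (0.66 to 0.92) and 0.41 (0.26 to 0.56), both with intervals above 0. HIST1H1E, the H1.4 gene, had 1.18 against 0.724 CPM in HEC-1-A and 0.162 against 0.461 CPM in RL-95-2, below the minimum in both. HIST1H1D, the H1.3 gene, had 0 counts in both HEC-1-A libraries and 2 against 7 counts in RL-95-2. The other H1 genes had at most 2 counts in any library.

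Among the H2A genes, HIST1H2AC had the largest ratios. It had 12.9 CPM with the mimics against 6.19 CPM with the control in HEC-1-A, and 12.8 against 7.12 CPM in RL-95-2. The log2 ratios were 1.05 (0.83 to 1.30) and 0.85 (0.64 to 1.06). HIST3H2A, the H2A gene with the highest level per length in HEC-1-A, differed little: 16.3 against 18.2 CPM in HEC-1-A (-0.16, -0.32 to -0.00) and 7.08 against 6.23 CPM in RL-95-2 (0.18, -0.06 to 0.43). It was the 1 measured gene whose interval lay below 0 in either line. HIST2H2AA3 had 7.73 against 5.92 CPM in HEC-1-A (0.38, 0.13 to 0.65) and 2.68 against 2.43 CPM in RL-95-2 (0.13, -0.25 to 0.53). Its duplicate HIST2H2AA4 gave 0.45 and 0.07, but 96.4% to 100% of the 150-base stretches of these genes occur in the other, so reads between them are uncertain. HIST2H2AC had 0.603 against 0.845 CPM in HEC-1-A, below the minimum, and 1.10 against 1.05 CPM in RL-95-2 (0.06, -0.55 to 0.68). Below the minimum, and chosen after its values were seen, HIST1H2AE had 33 counts with the mimics and 0 with the control in RL-95-2. Against a floor of 3 counts per library HIST1H2AE was 8.71-fold higher, and the counting interval of its log2 ratio starts at 2.74. In HEC-1-A it had 34 against 13 counts. HIST1H2AM, also below the minimum and picked out on its values, had intervals on opposite sides of 0, with 7 against 16 counts in HEC-1-A (-1.38, -3.15 to -0.27) and 29 against 4 counts in RL-95-2 (2.08, 1.01 to 4.49). It overlaps HIST1H3J and shares 80.7% of its 150-base stretches with it, so its counts are uncertain.

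H2B held the most genes at least 2-fold apart. HIST1H2BK had 25.6 CPM with the mimics against 17.6 CPM with the control in HEC-1-A, and 35.7 against 13.8 CPM in RL-95-2. Its log2 ratios, 0.54 (0.40 to 0.69) and 1.37 (1.23 to 1.52), had counting intervals that do not overlap; the difference between lines was not tested. HIST1H2BJ had 1.99 against 0.875 CPM in HEC-1-A (1.14, 0.56 to 1.84) and 1.74 against 0.641 CPM in RL-95-2 (1.38, 0.79 to 2.15). It was the 1 gene at least 2-fold higher in both lines. HIST1H2BD had 3.44 against 1.51 CPM in HEC-1-A (1.16, 0.72 to 1.68) and 5.15 against 3.46 CPM in RL-95-2 (0.57, 0.27 to 0.89), and an antisense gene, AL353759.1, overlaps it. HIST2H2BE, the H2B gene with the long annotated 3′ end shown above, had 17.6 against 15.4 CPM in HEC-1-A (0.19, 0.03 to 0.35) and 3.73 against 3.36 CPM in RL-95-2 (0.15, -0.18 to 0.49). Its libraries were thus close in both lines.

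HIST3H2BB and HIST1H2BN were at least 2-fold higher in HEC-1-A and under 2-fold in RL-95-2, a difference between lines that was not tested. HIST3H2BB had 2.03 against 0.936 CPM in HEC-1-A (1.08, 0.52 to 1.76) and 1.20 against 1.13 CPM in RL-95-2 (0.08, -0.50 to 0.68). HIST1H2BN, which overlaps HIST1H2AK and HIST1H2AL, had 1.45 against 0.694 CPM in HEC-1-A (1.02, 0.36 to 1.82) and 1.52 against 1.72 CPM in RL-95-2 (-0.17, -0.67 to 0.32). HIST1H2BG was the lowest H2B gene of HEC-1-A, with 0.871 against 1.33 CPM (-0.58, -1.27 to 0.05), and had 0.751 against 0.615 CPM in RL-95-2, below the minimum. These genes had 23 to 91 counts per library, and their intervals are wide.

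H3 had few counts and was measured through different genes in the lines. HIST2H3C had 2.95 CPM with the mimics against 1.60 CPM with the control in HEC-1-A (0.86, 0.41 to 1.37), and its duplicate HIST2H3A had 2.77 against 1.69 CPM (0.70, 0.25 to 1.19). In RL-95-2 they had 0.568 against 0.615 CPM and 0.548 against 0.769 CPM, below the minimum. All 150-base stretches of each recur in its duplicate or in neighbouring genes, so these counts are uncertain. HIST1H3H had 2.45 against 0.974 CPM in RL-95-2 (1.29, 0.80 to 1.90) and 0.693 against 0.483 CPM in HEC-1-A. HIST1H3E was absent from HEC-1-A, with 0 counts in both libraries, and had 53 against 42 counts in RL-95-2, a log2 ratio of -0.00 (-0.61 to 0.62).

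The 3 measured H4 genes were higher with the mimics in both lines. HIST1H4I had 5.70 CPM with the mimics against 4.01 CPM with the control in HEC-1-A (0.50, 0.20 to 0.82), and 6.61 against 3.28 CPM in RL-95-2 (1.0, 0.71 to 1.32). HIST2H4B had 9.18 against 7.15 CPM (0.36, 0.13 to 0.60) and 3.18 against 2.43 CPM (0.38, 0.01 to 0.77). HIST2H4A had 5.45 against 3.86 CPM (0.49, 0.18 to 0.82) and 2.29 against 1.26 CPM (0.84, 0.37 to 1.38). The HIST2 genes here are near-identical copies, and HIST2H4B overlaps HIST2H3A as HIST2H4A overlaps HIST2H3C. HIST1H4H, just under the minimum and chosen after its values were seen, had 66 counts with the mimics against 15 with the control in HEC-1-A (1.6, 0.88 to 2.62) and 0 counts in both RL-95-2 libraries.

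Counted over the group, 17 of 19 measured genes of HEC-1-A and 16 of 18 of RL-95-2 had a log2 ratio above 0, with medians of 0.54 and 0.39. Over all features of at least 1 CPM the share above 0 was 53.6% for HEC-1-A, against 50.1% for RL-95-2. In HEC-1-A, 5 of the 19 were at least 2-fold higher (HIST1H2AC, HIST1H2BD, HIST1H2BJ, HIST1H2BN and HIST3H2BB), against 0.871% of all features. In RL-95-2, 4 of the 18 were (HIST1H2BJ, HIST1H2BK, HIST1H3H and HIST1H4I), against 4.71% of all features. None was at least 2-fold lower, against 0.239% and 6.52% of all features. To allow for level, among features from 1 CPM up to the highest histone level the 2-fold higher share was 1.79% for HEC-1-A and 8.68% for RL-95-2, the 2-fold lower share 0.451% and 8.6%, and the share above 0 54.1% and 54.7%. Among single-exon protein-coding genes outside the clusters, 0.575% and 6.84% were 2-fold higher, 0.575% and 8.42% were 2-fold lower, and 36.2% and 64.7% had a ratio above 0.

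The direction was shared by most genes. Of the 15 measured in both lines, 13 were above 0 in both (86.7%), against 23.9% of all 11913 features measured in both, and 0 were below 0 in both. The other two, HIST3H2A and HIST1H2BN, had opposite signs. Not all of these genes are independent: the 15 include the copies HIST2H2AA3 and HIST2H2AA4, and HIST2H4A and HIST2H4B. HIST2H3A and HIST2H3C are further copies among those measured in HEC-1-A. Without overlapping or duplicate genes, 10 were measured in HEC-1-A (median 0.52) and 12 in RL-95-2 (median 0.51). Counting intervals lay wholly above 0 for 17 of the 19 genes of HEC-1-A, against 29.5% of all features of at least 1 CPM, and for 10 of the 18 of RL-95-2, against 39.9%. They lay wholly below 0 for 1 and 0 of these genes, against 23.5% and 40.5% of all features. Features with more counts have narrower intervals, and these shares over all features are not matched for level. The HIST1 cluster had the higher medians, 0.79 for HEC-1-A and 0.73 for RL-95-2, against 0.47 and 0.14 for HIST2, and the difference between clusters was not tested.

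**Figure D2:**
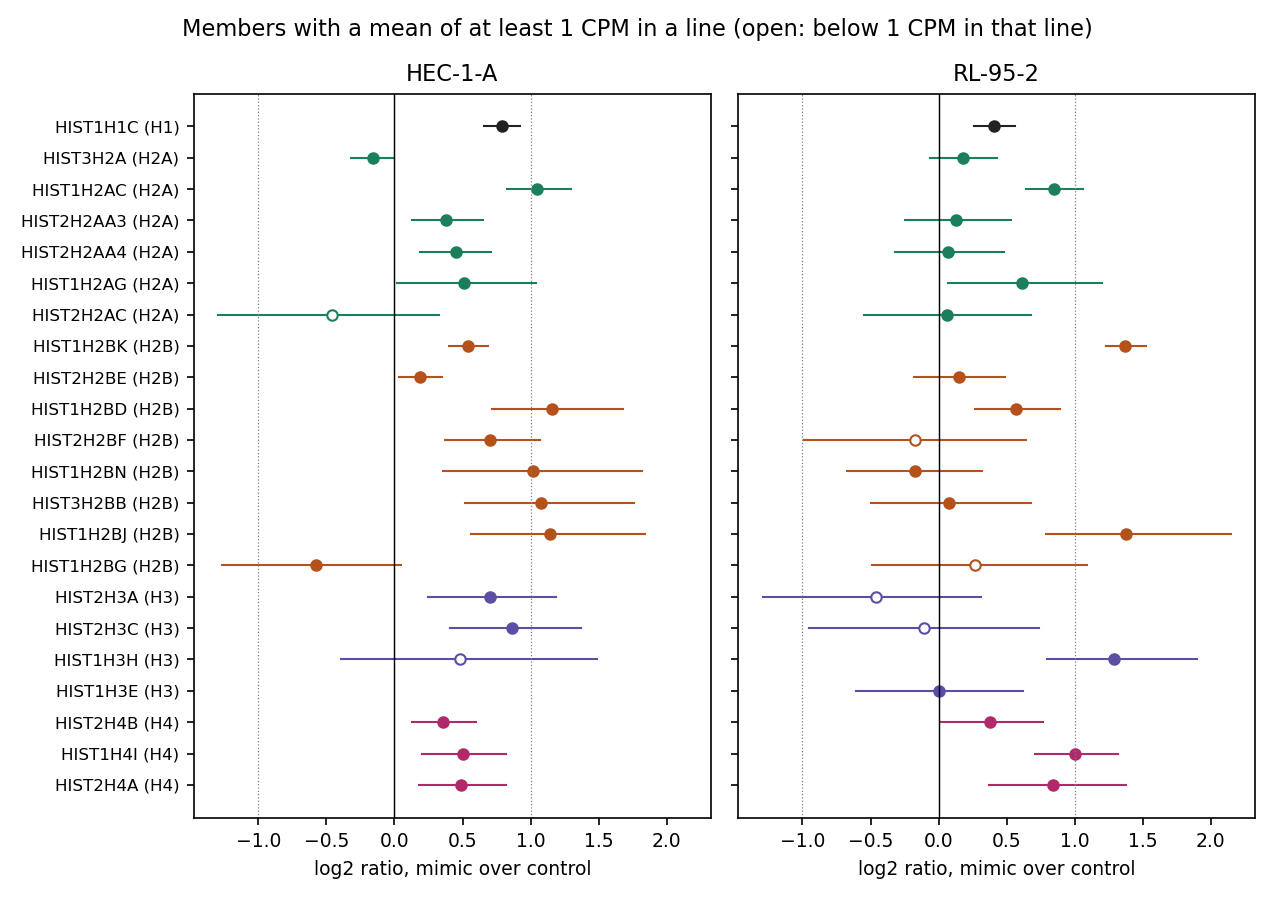
Log2 ratio of CPM, mimic over control (x axis), for the 22 clustered histone genes averaging 1 CPM or more in HEC-1-A (left) or RL-95-2 (right), ordered by type and coloured by type. Bars are exact 95% counting intervals, open points lie below 1 CPM in that line, and dotted lines mark 2-fold. Most points lie right of 0 in both panels, HIST1H2BK sits at 0.54 and 1.37, and HIST1H3E has no HEC-1-A point because it had 0 counts.

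Over both lines no clustered histone gene passed the test. edgeR's quasi-likelihood test, with the line as a block and Benjamini-Hochberg adjustment over all genes, called 0 of the 35 genes tested, where 0.0% of all 15957 genes were called. Without adjustment, p was under 0.05 for 167 of all genes and for 2 clustered histone genes. They were HIST1H2BK (log2 fold change 0.96, SE 0.30, adjusted p = 0.9999) and HIST1H2AC (0.95, SE 0.33, adjusted p = 0.9999), both higher in 2 of 2 lines. Higher with such a p were 92 genes, or 0.577% of all tested. DESeq2 called 2 of all genes and 0 clustered histone genes, of which 2 had an unadjusted p under 0.05. The fitted log2 fold change was above 0 for 28 of the 35, against 51.6% of all genes tested, with a median of 0.42 against 0.01. The replicates in this test are 2 lines with 1 residual degree of freedom, so its p-values measure the spread between these samples and say nothing of the spread between cultures of a line.

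The ratios were also laid out by 3′ end. Genes with a transcript that holds the stem-loop and runs at least 100 bases past it had medians of 0.51 for HEC-1-A (13 measured) and 0.38 for RL-95-2 (11 measured) on the log2 scale. Genes whose transcripts with a stem-loop end nearer to it had 0.45 and 0.13 (3 measured in each), and those with no stem-loop in the model had 0.79 and 0.89 (3 and 4 measured). Genes with AATAAA in the last 50 bases had 0.70 and 0.47 (13 and 12 measured), against 0.52 and 0.30 for those without (6 and 6). Of the 21 genes with this signal most were measured, and of the 50 without it few were. The 50 still had the larger sums, since HIST1H1C and HIST1H2BK are among them. In HEC-1-A they had 93.5 CPM with the mimics and 68.4 CPM with the control, against 84.6 and 57.4 CPM for the 21. In RL-95-2 they had 78.1 and 45.1 CPM, against 44.0 and 31.4 CPM. A model of the coding sequence alone cannot show the signal. No class was below 0 in its median, and the classes were not tested against each other.

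H2A and H2B genes often stand head to head and share the promoter between them. There were 11 such pairs with starts within 500 bases, and 10 of them had counts. Within several pairs the levels were far apart. HIST1H2BK had 58.0 and 40.7 FPKM in the HEC-1-A mimic and control libraries, while its partner HIST1H2AH, 330 bases away, had 0.0821 and 0.0078 FPKM. In RL-95-2 HIST1H2BK had 88.9 and 31.1 FPKM and HIST1H2AH had 0.188 and 0 FPKM. HIST1H2AC had 7.0 and 3.47 FPKM in HEC-1-A, with 7.42 and 3.71 FPKM in RL-95-2, against 0.518 and 0.224 FPKM and 1.56 and 0.642 FPKM for HIST1H2BC. HIST3H2A had 15.7 and 17.9 FPKM in HEC-1-A, against 0.736 and 0.348 FPKM for HIST3H2BB. In other pairs the partners were closer or changed places between lines in FPKM. HIST2H2AC had 1.29 and 1.89 FPKM in HEC-1-A, below HIST2H2BE at 6.92 and 6.20 FPKM, but 2.65 and 2.27 FPKM in RL-95-2, above HIST2H2BE at 1.61 and 1.32 FPKM. This change of place depends on the model lengths that FPKM divides by. In counts HIST2H2BE stayed above HIST2H2AC in RL-95-2, at 184 and 131 against 54 and 41. HIST1H2AG had 0.831 and 0.585 FPKM in HEC-1-A, with 1.88 and 0.776 FPKM for HIST1H2BJ, and 0.699 and 0.404 FPKM in RL-95-2, with 1.83 and 0.720 FPKM for HIST1H2BJ. The log2 ratios of CPM of HIST1H2AG and HIST1H2BJ were 0.51 and 1.14 for HEC-1-A, and 0.61 and 1.38 for RL-95-2.

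**Figure D3:**
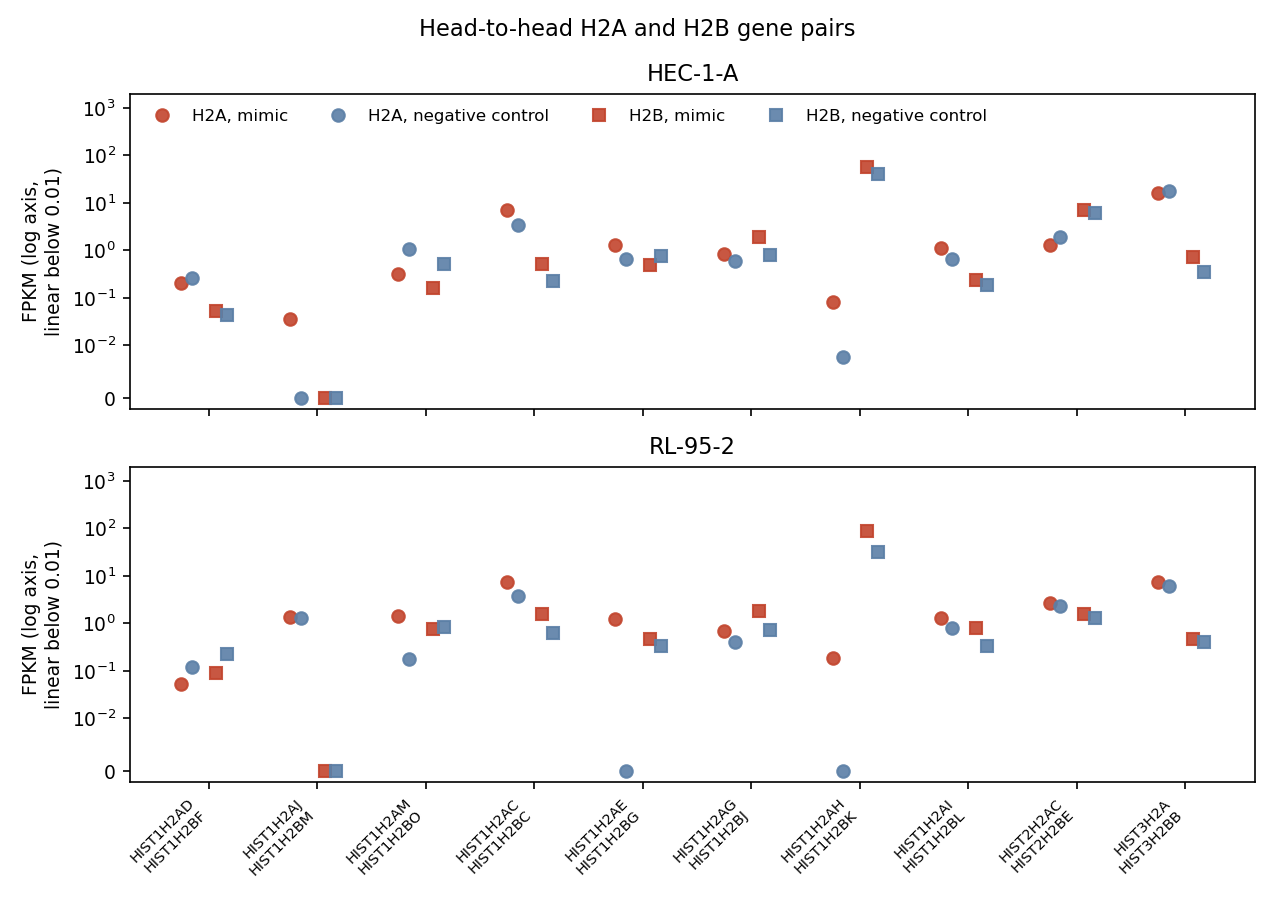
FPKM (y axis, logarithmic above 0.01 and linear below) of the H2A (circles) and H2B (squares) partner of the 10 head-to-head pairs with counts, mimic and negative control library, in HEC-1-A (upper) and RL-95-2 (lower). Each point is 1 library. HIST1H2BK stands far above HIST1H2AH, and HIST3H2A far above HIST3H2BB, in both lines.

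The machinery that makes and processes these mRNAs was read from fixed lists of other genes. SLBP had 83.7 CPM with the mimics against 84.2 CPM with the control in HEC-1-A (log2 ratio -0.01) and 131 against 90.5 CPM in RL-95-2 (0.54, 0.48 to 0.60). The U7 snRNP proteins LSM10 and LSM11 gave 0.05 and 0.01 for HEC-1-A, and -0.01 and 0.12 for RL-95-2. CASP8AP2, a histone locus body protein, had 0.07 and -0.10, and NPAT, the coactivator of histone transcription, had -0.14 and -0.12 for HEC-1-A and RL-95-2. Over the 20 genes of 3′ end processing and turnover the medians were -0.00 and 0.08, with none 2-fold apart in either line. In RL-95-2 they ranged from ZCCHC11, a uridylyltransferase, at -0.66 to SRRT, a cap-binding partner, at 0.96. MIF4GD, which binds SLBP, had -0.57 and the cleavage factor CSTF2 had 0.91 there.

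The lists of transcription, S phase and chaperone genes differed by line. The 10 genes of histone gene transcription had medians of -0.06 for HEC-1-A and 0.28 for RL-95-2, where E2F1 had 1.11 and CCNE2, cyclin E2, had 1.01, while POU2F1 had -0.46 and YY1 -0.27. Of 19 S phase genes, 15 were below 0 in HEC-1-A (median -0.11), while 18 were above 0 in RL-95-2 (median 0.77). In RL-95-2, 3 of the 19 were at least 2-fold higher, against 4.71% of all features. MCM5, a subunit of the replicative helicase, had 246 CPM with the mimics against 82.4 CPM with the control in RL-95-2 (1.58) and 68.0 against 83.7 CPM in HEC-1-A (-0.30). GINS2, of the GINS complex, had 1.47 and -0.42, CDC6, a loader of the helicase, -0.15 and 0.13, and RRM1, of ribonucleotide reductase, 0.45 and 0.01 in RL-95-2 and HEC-1-A. Of the measured clustered histone genes, 17 of 19 in HEC-1-A were above 0, beside 4 of the 19 S phase genes there, and 16 of 18 in RL-95-2, beside 18 of the 19. The 16 chaperone genes had medians of -0.09 and 0.25, from ASF1A at -0.76 to IPO4, an importin of histones, at 0.99 in RL-95-2.

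Histone genes outside the clusters, which are mostly polyadenylated and made throughout the cell cycle, mostly went the same way in HEC-1-A but not in RL-95-2. Of 12, 10 were measured in each line. In HEC-1-A 8 were above 0 (median 0.15), and in RL-95-2 4 were above 0 and 6 below (median -0.17). H1F0, the H1.0 gene of resting and differentiated cells, had 313 CPM with the mimics against 1650 CPM with the control in RL-95-2 (-2.40, -2.42 to -2.37), and 1120 against 817 CPM in HEC-1-A (0.46, 0.44 to 0.48). H1FX, another linker histone gene, had -1.12 and 0.22, while H2AFX, the variant phosphorylated at DNA breaks, had 1.0 and 0.09 and H3F3A, which encodes H3.3, had 0.73 and -0.22 in RL-95-2 and HEC-1-A. In RL-95-2, HIST1H1C was higher with the mimics, while H1F0 and H1FX were lower, as were HIST1H1E (8 against 18 counts, -1.28, -2.92 to -0.23) and HIST1H1D (2 against 7 counts), both below the minimum. None of these list genes was called over both lines by edgeR (adjusted p = 0.9999 for each one named).

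**Figure D4:**
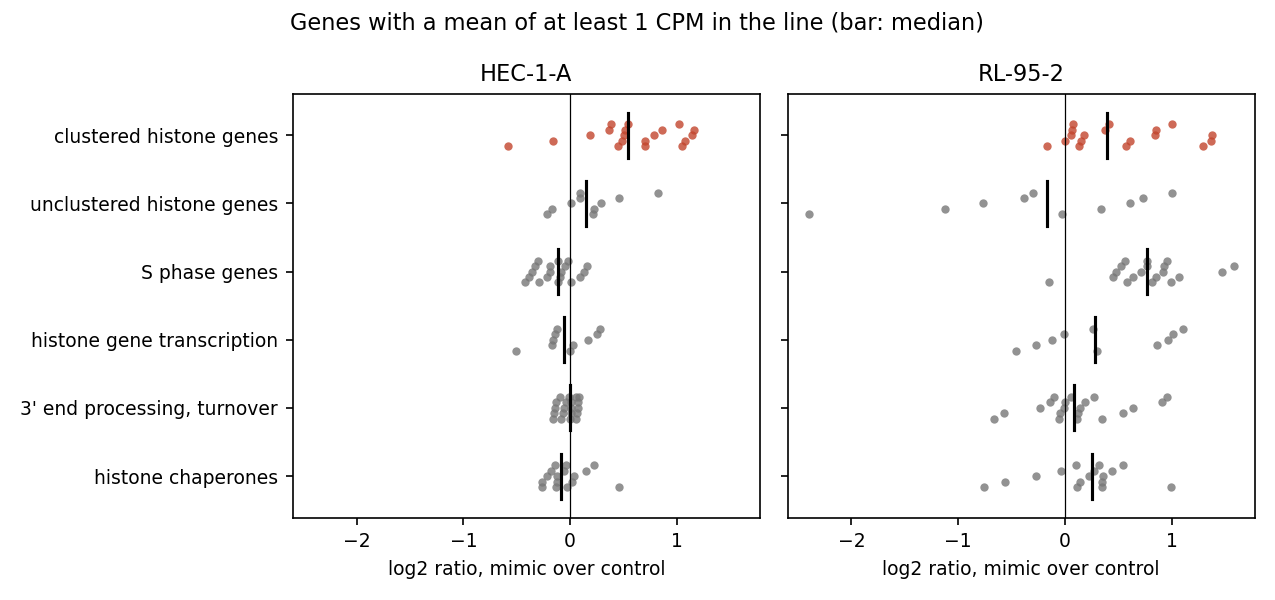
Log2 ratio of CPM, mimic over control (x axis), in HEC-1-A (left) and RL-95-2 (right) for clustered histone genes (red) and 5 other lists of genes (grey). Each point is 1 gene averaging 1 CPM or more there and each bar is the list median. The clustered histone genes have medians of 0.54 and 0.39, against -0.11 and 0.77 for the S phase genes.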

How the data were processed

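For 4 libraries, raw read counts and FPKM of each gene were used as the authors deposited them. The submitters' processing notes name CASAVA, HISAT2 and the GRCh38 (hg38) build. Counter, annotation and strand setting are not given there. Testing of counts used edgeR 4.0.16 (R 4.3.3): TMM, a filter on low counts, line as block and transfection, quasi-likelihood F test, FDR 0.05. The code was checked on simulated data with a fixed dispersion and the same response in both lines. That check does not show how the test performs where the lines respond differently, as here. Lines paired the libraries, as their labels name them. The test had 1 residual and 5.44 prior degrees of freedom. Within a line no test was made. Log2 ratios of TMM-scaled CPM (prior count 2) carry exact 95% conditional binomial intervals, for counting error only. Genes were measured at a mean of at least 1 CPM and counted as apart at 2-fold. DESeq2 1.42.0 and limma 3.58.1 gave alternatives. Ensembl gene identifiers linked symbols to GENCODE 29 and RefSeq. Genes were named by a rule: 2-fold apart, the 3 highest means of each type, and each type's extreme ratios, with extremes of each context list. The members, lists and rule were chosen with earlier results of these data known. The labels do not state separate cultures.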

Additional observations from a re-analysis of the deposited data

Results flagged for a closer look

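For 10 of the named genes of the other lists (transcription, S phase, chaperones, histones outside the clusters) the log2 ratio, mimic over control, had opposite signs in the lines, with counting intervals on opposite sides of 0. These are 10 of 25 named genes, most of which were taken as the extremes of their lists, and over the whole lists it held for 37 of 74. Of all 11913 features measured in both lines it held for 3204, or 26.9%. The difference between lines was not tested, since each line has 1 library per transfection. Linker histone genes H1F0 and H1FX had -2.40 and -1.12 in RL-95-2, against 0.46 and 0.22 in HEC-1-A, and H3F3A had 0.73 in RL-95-2 against -0.22 in HEC-1-A. Among genes of S phase and its entry, MCM5 had 1.58, GINS2 1.47 and CCNE2 1.01 in RL-95-2, against -0.30, -0.42 and -0.51 in HEC-1-A. CDC6 had -0.15 in RL-95-2 and 0.13 in HEC-1-A. Of the chaperone genes, IPO4 had 0.99 in RL-95-2 against -0.18 in HEC-1-A, while ASF1A had -0.76 and ATRX -0.56 in RL-95-2, against 0.46 and 0.22 in HEC-1-A. Of the 15 clustered histone genes of at least 1 CPM in both lines, 0 had intervals on opposite sides of 0. Their means were at most 29.2 CPM in a line, so their intervals were wider than those of most list genes. Such intervals were thus harder to reach for them, and no share at matched level is given. HIST1H2AM, below that minimum, had such intervals, at 2.08 in RL-95-2 against -1.38 in HEC-1-A.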

How the results depend on the processing

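Over both lines, 0 clustered histone genes were called by edgeR under each scaling and filter tried, by DESeq2 and by limma on voom or FPKM values, with 0 to 8 of them at an unadjusted p under 0.05. Over all genes edgeR called 0, DESeq2 called 2 and limma on log2(FPKM + 0.1) called 3. Without the line as a replicate block edgeR called 0 genes and 0 clustered histone genes. The median log2 ratio stayed above 0 in both lines, at 0.36 to 0.67 in HEC-1-A (0.54 as reported) and 0.27 to 0.63 in RL-95-2 (0.39). The count of genes at least 2-fold apart depended on the minimum level. In HEC-1-A, 5 of 19 as reported, it was 10 of 32 measured genes (9 higher, 1 lower) at 0.2 CPM and 1 of 8 at 5 CPM. There it was 0 of 19 on log2(FPKM + 1), 2 of 19 on log2(FPKM + 0.1) and 3 of 10 without overlapping or duplicate genes. In RL-95-2, 4 of 18 as reported, it was 9 of 35 (7 higher, 2 lower) at 0.2 CPM, 1 of 4 at 5 CPM and 1 of 18 on log2(FPKM + 1). Leaving out HIST1H1C and HIST1H2BK, chosen after seeing the data, left 5 of 17 and 3 of 16. The share over all features at these settings is not given. A stricter minimum tests fewer genes, and a pseudocount of 1 shrinks ratios of genes near 1 FPKM; other causes were not tested. Leaving out a line turned the sign of 7 of 20 named genes. The log2 ratios of the line that was kept, without HEC-1-A and without RL-95-2, were -1.28 and 0.67 for HIST1H1E, 0.27 and -0.58 for HIST1H2BG, -0.17 and 1.02 for HIST1H2BN, 0.06 and -0.46 for HIST2H2AC, -0.46 and 0.70 for HIST2H3A, -0.11 and 0.86 for HIST2H3C, and 0.18 and -0.16 for HIST3H2A. Depth limits genes under 1 CPM, whose ratios rest on few counts.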
